A study of Mus musculus with 5 samples.

Results

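The genes described here are the G1 cyclins, the cyclin-dependent kinases (CDKs) they bind, and the inhibitors and checkpoint genes that hold them back: Ccnd1, Ccnd2, Ccnd3, Cdk4, Cdk6, Cdkn2a, Cdkn2b, Cdkn1b, Rb1 and Trp53. They were taken as a list of 10 genes, and every probe whose platform gene symbol is one of them was followed. That gave 16 of the 25697 probes on the array, for 8 of the 10 genes. The annotation used here named no probe for Cdk4 or Trp53, which were therefore not analysed on the arrays. Of the 16 probes 14 were above background on at least 2 arrays, and all 8 genes had such a probe, among 8927 genes in all.

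The cells were DICER-null mouse embryonic fibroblasts (MEFs), labelled as strain C57BL/6 and grown in DMEM-based medium with serum. Loss of Dicer, which trims double-stranded precursors to microRNAs and siRNAs, is shared by every array, controls included. Knockdown cells received small interfering RNA (siRNA) against TARBP2, a protein that binds double-stranded RNA and works beside Dicer, with siTARBP2-1 on 1 array and siTARBP2-2 on another. Control cells received siControl-1, siControl-2 or siControl-3, on 3 arrays; all were transfected with a lipid reagent, and total RNA was taken 48 hours later. The design text calls the cells metastatic and the controls mock-transfected, and the labels were followed. All arrays carry 1 cell line, and no label states separate cultures, so p-values measure a spread between arrays that may be technical.

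In a cell leaving G0, D-type cyclins pair with CDK4 or CDK6 and phosphorylate the retinoblastoma protein Rb, the product of Rb1, which then lets go of E2F transcription factors that switch on the genes of DNA synthesis. The INK4 inhibitors p16INK4a (Cdkn2a) and p15INK4b (Cdkn2b) block CDK4 and CDK6, and p27Kip1 (Cdkn1b) chiefly blocks cyclin E with CDK2. A second product of Cdkn2a, p19ARF, restrains Mdm2 and so stabilises p53, the product of Trp53. In cultured mouse fibroblasts the INK4/ARF locus is known for rising with passage, and its loss or the loss of p53 is a common way for such cells to become immortal.

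The sequences of the promoter windows come first, since they show how Cdkn2a makes 2 products and how Ccnd3 has 2 annotated starts, which the probe annotation does not separate. Each window is 300 bases long, most of it before the start, and is taken from RefSeq, build GRCm38.p6; the table held 9 windows for 7 of the 10 genes. The array's own build is not stated, and no probe position is given. Capitals mark a GC box (GGGCGG, on either strand) or an E2F motif (TTTCCCGC, TTTCGCGC, TTTGCCGC or TTTGGCGC, on either strand). In mouse the upstream start of Cdkn2a gives p19ARF and the downstream one p16INK4a.
Cdkn2a upstream start, chr4:89294570-89294869, minus strand: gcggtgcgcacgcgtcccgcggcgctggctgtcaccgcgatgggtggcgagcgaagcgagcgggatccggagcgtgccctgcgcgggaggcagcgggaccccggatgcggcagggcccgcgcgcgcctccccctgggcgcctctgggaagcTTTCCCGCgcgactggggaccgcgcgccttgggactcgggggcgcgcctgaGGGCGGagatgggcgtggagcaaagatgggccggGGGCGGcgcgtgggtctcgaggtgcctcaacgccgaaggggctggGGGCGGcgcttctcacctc
Cdkn2a downstream start, chr4:89282143-89282442, minus strand: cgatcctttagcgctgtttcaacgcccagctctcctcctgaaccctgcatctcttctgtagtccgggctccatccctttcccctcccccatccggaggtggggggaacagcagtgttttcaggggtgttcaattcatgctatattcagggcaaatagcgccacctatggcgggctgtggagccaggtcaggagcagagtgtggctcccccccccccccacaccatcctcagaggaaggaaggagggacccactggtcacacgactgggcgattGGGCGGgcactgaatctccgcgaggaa
Ccnd3 start at the lower coordinate, chr17:47504801-47505100, plus strand: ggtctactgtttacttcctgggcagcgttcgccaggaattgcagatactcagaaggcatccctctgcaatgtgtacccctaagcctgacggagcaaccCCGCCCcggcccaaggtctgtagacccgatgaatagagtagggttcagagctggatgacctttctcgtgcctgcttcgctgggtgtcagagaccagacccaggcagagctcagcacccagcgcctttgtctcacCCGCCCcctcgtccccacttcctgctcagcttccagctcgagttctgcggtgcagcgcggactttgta
Ccnd3 start at the higher coordinate, chr17:47593217-47593516, plus strand: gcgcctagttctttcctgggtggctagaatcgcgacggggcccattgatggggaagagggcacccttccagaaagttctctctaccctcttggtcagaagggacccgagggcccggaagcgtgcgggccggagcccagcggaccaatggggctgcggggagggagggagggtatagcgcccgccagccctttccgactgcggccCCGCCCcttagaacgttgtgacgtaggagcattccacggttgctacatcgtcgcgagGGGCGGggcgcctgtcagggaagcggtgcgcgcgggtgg
The upstream Cdkn2a window held 1 E2F match, TTTCCCGC, and 3 GC boxes, and the downstream window 0 and 1. Each Ccnd3 window held 2 GC boxes and 0 E2F matches. Of the 9 windows 1 had an E2F match and 7 a GC box, where 2.26% and 35.7% of the 32851 windows in the table did. The E-box CACGTG, a palindrome read once, was in 3 of the 9, with 4 copies in the Cdk4 window, against 7.15% of all windows. A motif here is a match of letters and does not show a bound factor.

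All values below are log2 signals after background correction and quantile normalization, unless raw signal is named. Where a gene has several probes, the kept probe with the highest mean stands for it. Raw array medians were 79.0 to 81.9, with 12445 to 13051 detected probes on an array. The targeted gene, Tarbp2 (ILMN_2939990), read 9.36 to 9.55 in the controls against 7.67 for siTARBP2-1 and 7.18 for siTARBP2-2, so its levels go with the labels. The Dicer1 probe was above background on 0 of 5 arrays. Of 10 fibroblast markers 9 had a probe and 8 were above background on all arrays, among them Vim, Sparc and Pdgfra; Thy1 was on none. Their summed linear signal was 17530 to 19390 in the controls, against 16730 for siTARBP2-1 and 16160 for siTARBP2-2. The sum hides single markers: limma called Col1a1, Col3a1 and Pdgfra different from control with siTARBP2-1, and Col1a1 with siTARBP2-2. Over all genes limma called 7.65% and 4.27%. Of 3 leukocyte markers with a probe, of 5 listed, Ptprc and Adgre1 were above background on no array and Cd14 on all, and the list summed to 240.6 to 260.5 in the controls, 183.6 for siTARBP2-1 and 315.5 for siTARBP2-2. Of 4 endothelial markers Cdh5 and Tek were on no array and Pecam1 and Kdr on 1 each. The epithelial keratins Krt18 and Krt19 were on all arrays, and the epithelial markers Cdh1 and Krt8 on 2 each. The epithelial list, with 4 of 5 markers on the array, summed to 242 to 265.5 in the controls, 283.6 for siTARBP2-1 and 294.9 for siTARBP2-2. The part of these marker differences in the results below was not tested. The siTARBP2-1 array also carried a raised interferon response. All 10 measured genes of a list of 12 were called higher there by limma (median log2 change 1.63), against 3.88% of all genes. With siTARBP2-2 all 10 values were negative (median -0.50), and 3 were called lower, against 2.52% of all genes.

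**Figure D1:**
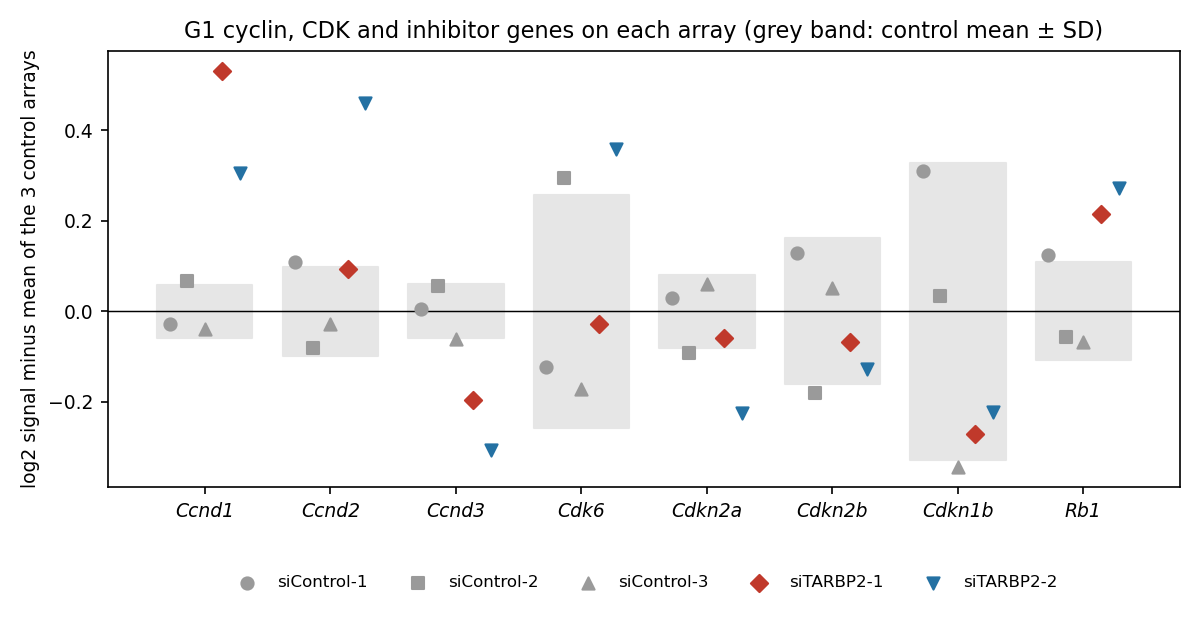
Log2 signal of each gene on each of the 5 arrays, minus the mean of the 3 control arrays (vertical axis); the grey band is the control mean ± SD (n = 3). Ccnd1 and Rb1 lie above all controls with both siRNAs and Ccnd3 lies below them, while Cdk6 and Cdkn1b have the widest control bands, with SDs of 0.26 and 0.33.

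Among the D-type cyclins, Ccnd1 was higher and Ccnd3 lower than every control on both TARBP2 siRNA arrays, and Ccnd2 stood out with siTARBP2-2. The rise of Ccnd1 with siTARBP2-1, 1.45-fold, was the 1 change among the 8 genes that passed the test. In bulk RNA, a change in the number of cells at one stage of the cycle and a change in RNA per cell cannot be told apart.

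Ccnd1 encodes cyclin D1, the D-type cyclin that follows mitogen signals in fibroblasts. Probe ILMN_1221503 read 10.84, 10.93 and 10.83 on siControl-1, siControl-2 and siControl-3, 11.40 with siTARBP2-1 and 11.17 with siTARBP2-2. Both knockdown arrays were above all controls, whose SD was 0.06 (n = 3). With siTARBP2-1 Ccnd1 rose by 0.53 (SE 0.11, 95% interval 0.26 to 0.80; limma, adjusted p = 0.0388). With siTARBP2-2 the change was 0.31 (SE 0.11, 95% interval 0.04 to 0.57; limma, adjusted p = 0.178), a value that did not pass. Over both siRNAs it was 0.42 (SE 0.12; limma, adjusted p = 0.242), and the siRNAs did not differ by the test (0.23, 95% interval -0.10 to 0.55; limma, adjusted p = 0.362). Without siControl-2 the siTARBP2-1 call ended (0.57; limma, adjusted p = 0.0977), as it did without siControl-3 (0.51; adjusted p = 0.0761).

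Over all genes the share called with siTARBP2-1 fell too, from 7.65% to 2.86% without siControl-2 and to 5.9% without siControl-3. The other Ccnd1 probes show how far the rise of Ccnd1 rests on the probe. ILMN_2601471 read 10.50, 10.64 and 10.55 on the controls, 11.02 with siTARBP2-1 and 10.79 with siTARBP2-2, again above every control, with a change of 0.46 for siTARBP2-1 that did not pass (SE 0.12; limma, adjusted p = 0.0619). The third, ILMN_2669793, was dim, with raw signals of 104.9 to 110.8 where the lowest detected signals were 78.2 to 82.9, and its arrays overlapped (0.04 with siTARBP2-1 and -0.07 with siTARBP2-2). With the mean of the 3 probes the siTARBP2-1 change was 0.35 (limma, adjusted p = 0.0849). All 3 probes carry the same accession in the annotation.

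Ccnd2, which encodes cyclin D2, had 1 probe, with 8.65, 8.46 and 8.51 on the controls, 8.63 with siTARBP2-1 and 9.0 with siTARBP2-2. The siTARBP2-2 array was above all controls and the siTARBP2-1 array lay inside their range. The change was 0.46 with siTARBP2-2 (SE 0.12, 95% interval 0.17 to 0.75; limma, adjusted p = 0.0895) and 0.09 with siTARBP2-1 (adjusted p = 0.69), and neither passed. The difference between the siRNAs, siTARBP2-1 minus siTARBP2-2, was -0.37 (SE 0.15, 95% interval -0.72 to -0.01; limma, adjusted p = 0.189) and did not pass either. With the authors' series matrix values in place of the background-corrected ones, the siTARBP2-2 change passed (0.41; limma, adjusted p = 0.0232).

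Ccnd3 encodes cyclin D3. Its brightest probe, ILMN_3131063, read 11.77, 11.82 and 11.70 on the controls, 11.57 with siTARBP2-1 and 11.46 with siTARBP2-2. All 3 Ccnd3 probes had both knockdown arrays below every control, though ILMN_2661849 was above background on 2 arrays alone, both of them controls. It thus passed the filter through the group where it read higher, and adds no support. ILMN_1246473 was near background, with raw signals of 84 to 97.6. The changes of the brightest probe did not pass, at -0.20 with siTARBP2-1 (95% interval -0.47 to 0.07; limma, adjusted p = 0.336) and -0.31 with siTARBP2-2 (95% interval -0.57 to -0.04; adjusted p = 0.179). Over both siRNAs it was -0.25 (SE 0.11; limma, adjusted p = 0.404). Taken within each array, Ccnd1 minus Ccnd3 was -0.93, -0.89 and -0.88 on the controls, -0.17 with siTARBP2-1 and -0.29 with siTARBP2-2. The within-array difference was thus 0.67 higher in knockdown (0.73 with siTARBP2-1 and 0.61 with siTARBP2-2), with a control SD of 0.03. This pair was chosen after its values were seen and carries no test. A difference between probes shows unequal change and no ratio of transcript levels.

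**Figure D2:**
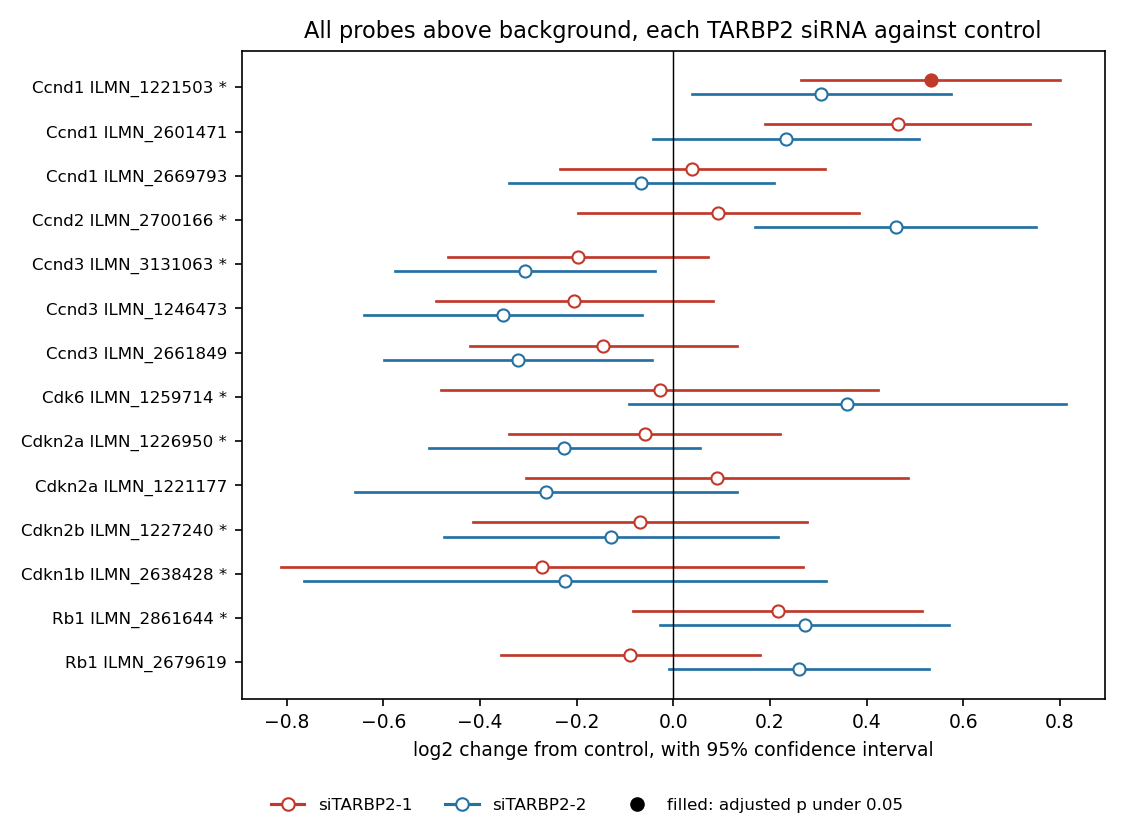
Log2 change from control with its 95% confidence interval (horizontal axis) for each of the 14 probes above background, for siTARBP2-1 (red) and siTARBP2-2 (blue); an asterisk marks the probe that stands for its gene, and a filled point an adjusted p under 0.05. Ccnd1 ILMN_1221503 with siTARBP2-1 is the 1 filled point. All 3 Ccnd3 probes lie left of 0 with both siRNAs, but ILMN_2661849 was kept through 2 control arrays alone and ILMN_1246473 is near background.

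Of the kinases, Cdk6 was measured near the detection limit, and Cdk4 was not analysed here. Cdk6 had raw signals of 83.7 to 98.4. Its normalized values were 5.04, 5.46 and 4.99 on the controls, 5.13 with siTARBP2-1 and 5.52 with siTARBP2-2. The groups overlapped and siControl-2 was nearly as high as siTARBP2-2. The change was -0.03 with siTARBP2-1 (limma, adjusted p = 0.952) and 0.36 with siTARBP2-2 (95% interval -0.09 to 0.81; adjusted p = 0.318), so a change of up to 0.81 was within the interval.

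The INK4/ARF genes were above background on every array, and their knockdown values lay close to the controls. For Cdkn2a, ILMN_1226950 read 9.64, 9.52 and 9.67 on the controls, 9.55 with siTARBP2-1 and 9.38 with siTARBP2-2. The changes were -0.06 (95% interval -0.34 to 0.22; limma, adjusted p = 0.799) and -0.23 (95% interval -0.51 to 0.05; adjusted p = 0.314). The second probe, ILMN_1221177, read 8.01, 7.71 and 7.61 on the controls, 7.87 with siTARBP2-1 and 7.51 with siTARBP2-2, and its changes were 0.09 and -0.26. Both probes carry 1 accession in the annotation, so the share of p19ARF and p16INK4a in these signals, whose starts are printed above, was not measured. With siTARBP2-2 both probes read below every control, and with siTARBP2-1 both lay inside the control range. Neither probe passed in any comparison.

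Cdkn2b, the neighbour of Cdkn2a that encodes p15INK4b, read 9.52, 9.21 and 9.44 on the controls, 9.32 with siTARBP2-1 and 9.26 with siTARBP2-2. Both knockdown values lay inside the control range. The changes were -0.07 (95% interval -0.41 to 0.28) and -0.13 (95% interval -0.47 to 0.22; limma, adjusted p = 0.815 and 0.643).

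Cdkn1b, the p27Kip1 gene, had 3 probes and 1 kept. ILMN_2638428 read 5.71, 5.43 and 5.05 on the controls, 5.13 with siTARBP2-1 and 5.17 with siTARBP2-2. The controls spread over 0.66, more than either change of -0.27 or -0.22 (SE 0.23; limma, adjusted p = 0.513 and 0.605). The probe ILMN_2923960 was above background on siControl-1 alone, and both knockdown arrays lay below all controls there. The probe ILMN_1228598 was above background on no array. The 95% interval of the kept probe with siTARBP2-1 ran from -0.81 to 0.27, so a fall of that size was not distinguished from no change.

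**Figure D3:**
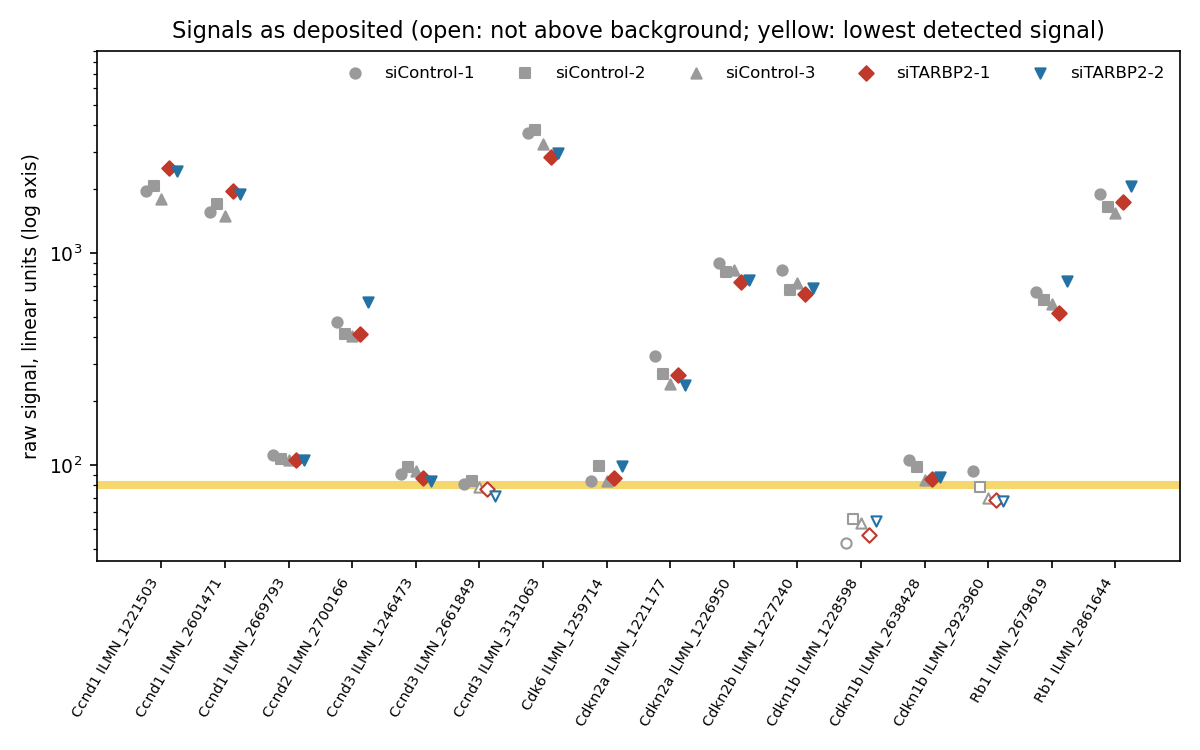
Raw signal as deposited (vertical, log axis) for all 16 probes of the 8 genes on each array; open symbols are arrays on which a probe was not above background, and the yellow band spans the lowest detected signals, 78.2 to 82.9. Cdk6, Cdkn1b and the dimmer Ccnd1 and Ccnd3 probes lie close to the band, and the Cdkn1b probe ILMN_1228598 below it on every array.

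Rb1, the gene of the pocket protein that the D-type cyclin kinases phosphorylate, was above the controls on 1 of its 2 probes. ILMN_2861644 read 10.77, 10.59 and 10.58 on the controls, 10.86 with siTARBP2-1 and 10.92 with siTARBP2-2, and both knockdown arrays exceeded every control. The changes were 0.22 (95% interval -0.08 to 0.51; limma, adjusted p = 0.343) and 0.27 (95% interval -0.03 to 0.57; adjusted p = 0.262), neither of which passed. The second probe, ILMN_2679619, read 9.17, 9.05 and 9.09 on the controls, 9.01 with siTARBP2-1 and 9.36 with siTARBP2-2, so the siTARBP2-1 array lay below all controls there and the siTARBP2-2 array above. The probes therefore disagreed for siTARBP2-1 in sign (0.22 and -0.09).

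Counted together, 1 of the 8 genes rose and 0 fell with siTARBP2-1, where limma called 7.65% of all 8927 genes, 3.88% higher and 3.78% lower. At an unadjusted p under 0.05 the count was 1 as well, against 24.7% of all genes. With siTARBP2-2 it was 0, against 4.27% (1.75% higher and 2.52% lower), and 3 unadjusted (Ccnd1, Ccnd2 and Ccnd3), against 22.9%. Over both siRNAs it was 0, against 0.0112%, and 1 unadjusted (Ccnd1), against 12.9%. That 0.0112% is 1 gene, the targeted Tarbp2 (-2.05, limma, adjusted p = 0.0412). All other calls named here thus rest on a comparison with 1 array for each siRNA. Between the siRNAs the count of members was 0, against 7.06% (3.72% higher and 3.34% lower), and 1 unadjusted (Ccnd2), against 25.4%. No other tool was run. A count of 1 among 8 is near the background share and says nothing particular about these genes. Their median log2 change was -0.04 with siTARBP2-1 and 0.07 with siTARBP2-2, beside -0.01 and 0.02 over all genes. Both knockdown arrays lay outside the control range on one side for 3 of the 8 genes, 2 above and 1 below, against 31.3% of all genes (16.2% above and 15.1% below), and 5 genes overlapped.

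The authors' deposited table gives 1 log fold change per RefSeq accession, knockdown against control, and a mark of 1 for accessions at or above a value of 0.10, which 8.67% of its 18744 accessions carry. In the authors' deposited table Trp53, the p53 gene, had 0.16 and the mark 1, which is the 1 value for it here. That table also marks Ccnd1 (0.25), Ccnd2 (0.21) and Rb1 (0.15), so 4 of the 9 genes it holds were marked. Ccnd3 had -0.25 for 1 accession in the authors' deposited table and -0.06 for another. The remaining values in the authors' deposited table were 0.04 for Cdk6, -0.09 for Cdkn2a, -0.08 for Cdkn2b and -0.05 for Cdkn1b. The log base is not stated, and was taken as log2 because the values in the authors' deposited table had a slope of 1.03 on log2 ratios from the series matrix for bright probes (log2 intensity 12 to 16). For dim probes (5 to 7), among which Cdk6 and Cdkn1b fall, the slope was 0.448, so small changes are compressed there. The share of 8.67% takes in dim entries, where values are compressed, so it is not a like measure for the 4 of 9 genes marked. The table has no replicate error and used the same arrays.

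Partners of the G1 machinery were lower on the siTARBP2-1 array in 3 cases. Of 20 measured genes of a list of 22, 3 fell and 0 rose with siTARBP2-1 (median -0.16), where 3.78% of all genes fell and 3.88% rose. With siTARBP2-2 0 passed (median 0.04), against 4.27% of all genes, and 0 over both, against 0.0112%. Ccne1, which encodes cyclin E1, the partner of CDK2 at the G1/S step, read 6.70, 6.78 and 6.76 on the controls, 6.11 with siTARBP2-1 and 6.57 with siTARBP2-2. It fell by 0.64 with siTARBP2-1 (SE 0.11; limma, adjusted p = 0.0208). E2f5, an E2F factor of the repressor class that works with pocket proteins, fell by 0.60 (adjusted p = 0.0238), and Tfdp1, the dimer partner of E2F factors, by 0.56 (adjusted p = 0.0327). With siTARBP2-2 the values were -0.17 for Ccne1, -0.20 for E2f5 and -0.03 for Tfdp1. Cdkn1a, the p21 gene, had 0.44 with siTARBP2-1 and 0.48 with siTARBP2-2 and did not pass.

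Among 23 measured regulators of D-type cyclins, p27Kip1 and the INK4/ARF locus (list of 27), 4 fell with siTARBP2-1, against 3.78% of all genes, 1 with siTARBP2-2, against 2.52%, and 0 rose. Bmi1, a Polycomb protein known to repress the INK4/ARF locus, read 9.10, 8.85 and 8.89 on the controls, 8.17 with siTARBP2-1 and 8.78 with siTARBP2-2. It fell by 0.78 with siTARBP2-1 (SE 0.14; limma, adjusted p = 0.0216), and Cdkn2a and Cdkn2b on the same array had the values of -0.06 and -0.07 given above. The second Cdkn2a probe had 0.09 there, so the sign for Cdkn2a depended on the probe. A link between these values was not tested. Id1, an inhibitor of basic helix-loop-helix factors, fell by 0.88 (limma, adjusted p = 0.00835), Fbxo31, a ubiquitin ligase subunit linked to cyclin D1 turnover, by 0.72 (adjusted p = 0.0319), and Foxo1, a forkhead factor known to activate Cdkn1b, by 0.68 (adjusted p = 0.0188). The siTARBP2-2 values were -0.17 for Bmi1, 0.02 for Id1, -0.12 for Fbxo31 and -0.17 for Foxo1. Fbxo4, another ubiquitin ligase subunit linked to cyclin D1, fell by 0.55 with siTARBP2-2 (SE 0.11; limma, adjusted p = 0.0468). With siTARBP2-1 Fbxo4 had a value of the opposite sign, 0.27.

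Of 14 measured E2F target genes of DNA replication (list of 16), 1 fell with each siRNA and 0 rose, where 3.78% of all genes fell with siTARBP2-1 and 2.52% with siTARBP2-2. Tk1, thymidine kinase, fell by 0.74 with siTARBP2-1 (SE 0.11; limma, adjusted p = 0.0134) and Rrm2, a subunit of ribonucleotide reductase, by 0.67 with siTARBP2-2 (SE 0.13; adjusted p = 0.0422). Tk1 had -0.34 with siTARBP2-2, and Rrm2 had -0.30 with siTARBP2-1. All 14 values were negative with siTARBP2-1 (median -0.30) and 6 with siTARBP2-2 (median 0.01), with most single values not past the threshold. The medians over all genes were -0.01 and 0.02. Each value is from 1 probe, and Tyms, Mcm4 and Mcm6 each had a kept probe of the opposite sign with siTARBP2-1. The Mcm4 value was -0.0145. Of 15 measured p53 target genes (list of 18), 2 rose with siTARBP2-1, against 3.88% of all genes, and 1 with siTARBP2-2, against 1.75%. With siTARBP2-1 these were the cell death gene Bbc3 at 1.00 (limma, adjusted p = 0.0144) and the death receptor Fas at 0.60 (adjusted p = 0.044), each on the brightest of 3 kept probes. With the mean of the 3 probes both calls ended, at 0.39 for Bbc3 (limma, adjusted p = 0.128) and 0.33 for Fas (adjusted p = 0.144), and 1 Fas probe had the opposite sign. With siTARBP2-2 it was the stress gene Gadd45a at 1.12 (limma, adjusted p = 0.015). Gadd45a had 0.37 with siTARBP2-1, and Bbc3 and Fas had 0.45 and 0.12 with siTARBP2-2. Of the 15 p53 target values 12 were positive with siTARBP2-1 (median 0.29) and 13 with siTARBP2-2 (median 0.19). Cdkn1a and Mdm2 stand in more than 1 of these lists.

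The calls with siTARBP2-1 fell on the array with the raised interferon response described above, whose part in them was not tested. Leaving out siControl-2 cut the share called over all genes from 7.65% to 2.86% with siTARBP2-1. With siTARBP2-2 it went from 4.27% to 0.639%. Without siControl-3 the shares were 5.9% and 2.69%, and with no filter on dim probes 2.62% and 0.5%. Losses of calls under these settings were thus not limited to the genes named here. Of the 10 named calls with siTARBP2-1 in these lists 8 ended without siControl-2, leaving Id1 (-0.85; limma, adjusted p = 0.0373) and Bbc3 (1.03; adjusted p = 0.0423), whose call ended with the mean of its probes. Without siControl-3 the calls of Tfdp1 and Fas ended (adjusted p = 0.0612 and 0.0738). With siTARBP2-2, Fbxo4 and Rrm2 ended without siControl-2 (limma, adjusted p = 0.152 and 0.129) and without siControl-3 (adjusted p = 0.0845 and 0.062), and Gadd45a passed in both. With no filter on dim probes the siTARBP2-1 calls of Fbxo31, Bmi1 and Fas ended (limma, adjusted p = 0.0728, 0.052 and 0.0802), as did the siTARBP2-2 calls of Fbxo4 and Rrm2 (adjusted p = 0.0657 and 0.078). With median scaling those of Fas with siTARBP2-1 and Fbxo4 with siTARBP2-2 ended (adjusted p = 0.106 and 0.0648).

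**Figure D4:**
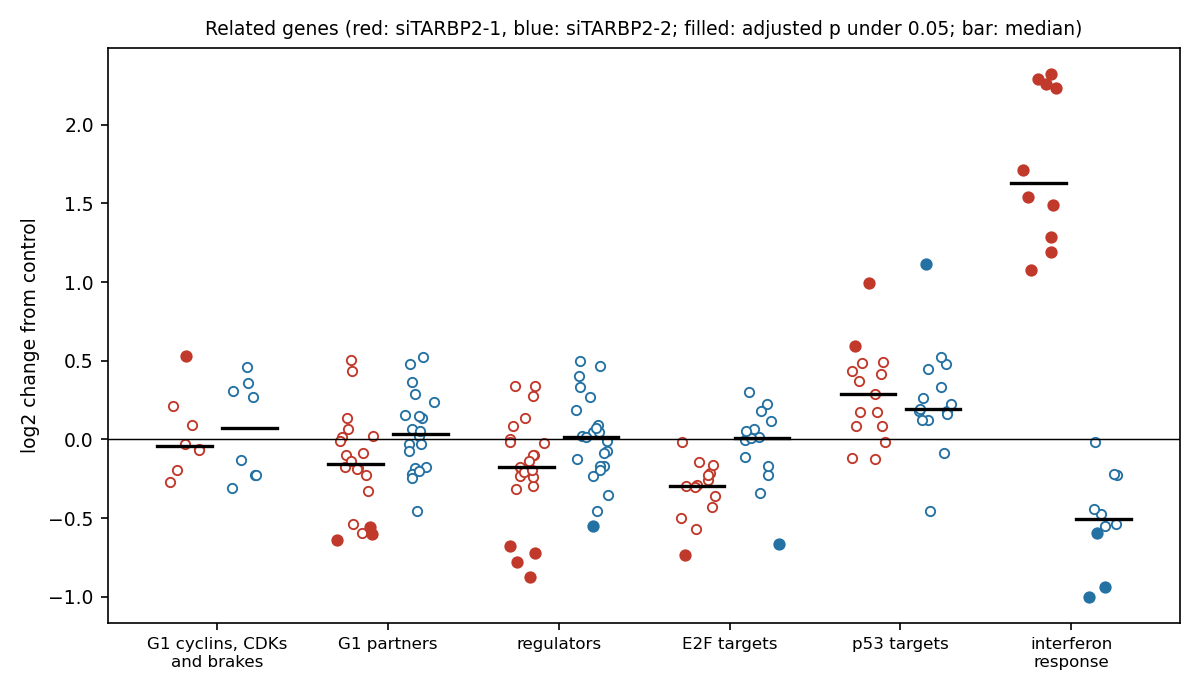
Log2 change from control (vertical axis) of each measured gene for siTARBP2-1 (red) and siTARBP2-2 (blue), for the 8 G1 cyclin, CDK and inhibitor genes and the related lists; filled points have an adjusted p under 0.05 and bars are medians. The interferon response list is at a median of 1.63 with siTARBP2-1, and the 14 E2F target genes, each on 1 probe, all lie below 0 there.

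The genes whose profile over the 5 arrays came closest to 2 of the members were found by Euclidean distance on log2 values centred on the control mean, for the 2 members with the largest SD, Cdkn1b (0.27) and Ccnd1 (0.25). For Ccnd1 they were Zfp688 (distance 0.0164), C2cd5 (0.0339) and Tbc1d2 (0.0617), where the median distance over 8926 genes was 0.698. Zfp688 had 0.52 with siTARBP2-1 and 0.31 with siTARBP2-2. For Cdkn1b they were Gas2 (0.14), Nudt4 (0.158) and Abcc1 (0.171), against a median of 0.672. With 5 arrays and 8926 genes such likeness is a description of these arrays.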

How the data were processed

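Total RNA was labelled with biotin and measured on 1-colour Illumina arrays (2 TARBP2 siRNA, 3 control). The authors deposited a linear intensity and a detection p-value per probe and array; the software and build behind them are unstated. The submitters' processing notes name lumi. The deposited detection p-values beside siTARBP2-2 did not follow its signals (Spearman 0.000598, against -0.961 to -0.967 elsewhere) and were replaced by averaging, at equal signal rank, those of the remaining 4 arrays. The authors' series matrix holds linear intensities with equal quantiles on all arrays. Their deposited table holds log fold changes, whose base is not stated and was taken as log2, and a score of 0 or 1.

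Signals were normalized here (limma 3.58.1, R 4.3.3: neqc, offset 16), and the 13123 probes detected at p under 0.05 on 2 or more arrays were kept. Groups follow the labels. The test was limma's lmFit with eBayes, two-sided, adjusted by Benjamini-Hochberg across the kept probes, with 0.05 as threshold. Another fit gave each siRNA a coefficient of its own; there the 3 controls alone set the spread (2 residual degrees of freedom), and a lone array was assumed to vary as they do. The fits were tested on simulated data. The 4 comparisons share arrays. Named are all members, Tarbp2, up to 8 genes per related list that passed in any comparison, and for the 2 members with the largest SD the 3 nearest profiles; markers and lists are described by group. Members and lists were chosen with earlier results of these data known. Of 25697 probes 23978 had 1 gene symbol. Replicate numbers were not taken to pair arrays. Alternatives are given in the closing section. The number of arrays limits the precision.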

Additional observations from a re-analysis of the deposited data

Results flagged for a closer look

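The effects of the TARBP2 siRNAs, each against control, differed by limma's test of siTARBP2-1 minus siTARBP2-2 for 4 related genes outside the interferon list. They differed for 0 of the 8 G1 cyclin, CDK and inhibitor genes, and for 7.06% of all genes. By list, 0 of 20 G1 partners, 1 of 14 E2F targets and 1 of 15 p53 targets differed. Of 23 regulators 1 was higher and 1 lower with siTARBP2-1. All 10 measured interferon response genes differed as well (median 2.23). Genes were named because they passed in some comparison. Fbxo4 was higher with siTARBP2-1 (0.82 on the log2 scale; limma, adjusted p = 0.0196). Id1 (-0.89; adjusted p = 0.0181), the replication licensing gene Cdt1 (-0.66; adjusted p = 0.0362) and Gadd45a (-0.75; adjusted p = 0.0442) were lower with siTARBP2-1. Cdt1 had -0.36 with siTARBP2-1 and 0.30 with siTARBP2-2 against control, neither past the threshold. Without siControl-2 the calls of Fbxo4 (limma, adjusted p = 0.0552), Cdt1 (0.0863) and Gadd45a (0.0844) ended, and without siControl-3 that of Cdt1 (0.0506). Without siControl-2 the share of all genes that differed between the siRNAs also fell, from 7.06% to 3%. Each siRNA was on 1 array, so siRNA and array cannot be told apart.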

How the results depend on the processing

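The count of members called with siTARBP2-1 against control was 1 (Ccnd1), and 0 with no filter on dim probes (limma, adjusted p of Ccnd1 0.0514), with median scaling (0.112) and with the mean of all kept probes of a gene (0.0849); leaving out 1 array it ran from 0 to 1. The count with siTARBP2-2 was 0, and 1 (Ccnd2) with no background correction (limma, adjusted p = 0.0227), with normexp and an offset of 50 (0.0225), with the series matrix values (0.0232) and with an intensity trend in eBayes (0.0297). Over both siRNAs it was 0, and leaving out 1 array 0 to 1, where 1 is the siTARBP2-1 array against control. Between the siRNAs it was 0 throughout. Over all genes the share called with siTARBP2-2 was 4.27%. It was 10.7% with no background correction, with normexp and with the series matrix values, and 10.5% with the trend. A count of 1 among 8 is near those shares. With siTARBP2-1 the all-gene share was 7.65%. It was 2.62% with no filter, 9.17% with median scaling and 7.53% with the mean of all kept probes. Counting detection on the 4 arrays with a usable column, an alternative chosen after seeing the data, changed no count. Median scaling moved the median of all genes by -0.11 with siTARBP2-1, to -0.12, and by -0.13 between the siRNAs, to -0.15. Relative to the all-gene median Ccnd1 had 0.53 with siTARBP2-1 under it. Signs turned for 7 values, none past the threshold. Under median scaling these were Ccnd2 with siTARBP2-1 (0.09 to -0.0376) and, between the siRNAs, Ccnd3 (0.11 to -0.0358), Cdkn2a (0.17 to -0.0219) and Cdkn2b (0.06 to -0.0966); relative to the all-gene median they were 0.08, 0.11, 0.13 and 0.05, with the main sign. With the mean of all kept probes Cdkn2a with siTARBP2-1 went from -0.06 to 0.0159. Leaving out an array, Cdk6 went over both siRNAs from 0.17 to -0.028 (without siTARBP2-2; leaving out 1 array it ran from -0.028 to 0.3598) and with siTARBP2-1 from -0.03 to 0.1201 (without siControl-2). The calls over all genes with siTARBP2-1 split into 346 higher and 337 lower, and into 248 and 571 with median scaling. With the replicate number as a block, Ccnd1 over both siRNAs was 0.40 (limma, adjusted p = 0.739) and 0 members were called. That fit could not be made for each siRNA alone. The replicate numbers were not taken to pair the arrays. Across genes, siTARBP2-1 minus siTARBP2-2 and siControl-1 minus siControl-2 had a correlation of -0.048. This cannot show whether arrays of the same number share a batch, since the siRNAs themselves differ. For single genes 596 values under the alternatives kept their direction and side of the threshold, 33 lost a call and 5 gained one. Part of the 596 was fixed in advance, because leaving out 1 siRNA array repeats the fit of the other siRNA unchanged. The tally is therefore a description and does not measure stability. Probes near background, such as those of Cdk6 and Cdkn1b, limit what could be detected.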
